A study of Mus musculus with 7 samples.

Results

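The 8 genes described here, Ier2, Ier3, Ier5, Ccn1, Ccn2, Nrn1, Tiparp and Csrnp1, are immediate early response genes, and they were chosen by name from 21887 protein-coding genes. Earlier results of these data were known when they were chosen. Peaks of 6 lists from chromatin immunoprecipitation sequencing (ChIP-seq) with an antibody against Fos were taken when they lay within 50 kb of a gene's span. The mice were wild-type C57BL/6J animals, 2 months old, and the tissue was hippocampus. The saline group (3 libraries) received PBS, and the kainic acid group (3 libraries) received a convulsant that activates glutamate receptors of the kainate type. It was injected intraperitoneally 2 times, at 10 mg/kg and 30 min apart, and mice that reached level 4 seizures were killed 1 hour after the first. How many animals made up each library is not given in the labels. P-values therefore measure only the spread between these libraries, which may be technical. An input library was not used here. Peak lists carry no expression values, so the tissue could not be checked against marker genes.

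Immediate early response genes are transcribed within minutes of a stimulus without the need for new protein synthesis. Fos is itself the product of such a gene. It pairs with a Jun protein to form AP-1, a transcription factor that binds the heptamer TGANTCA, often at sites away from promoters. The genes here encode regulators in the nucleus (Ier2, Ier5, Csrnp1), a survival factor (Ier3), an enzyme (Tiparp) and proteins outside the cell or at its surface (Ccn1, Ccn2, Nrn1).

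The sequences below are 2 of the 3 promoters on which kainic acid peaks lay, one under peaks of every kainic acid list and one for comparison, from 250 bases before a start site to 50 after it, taken from RefSeq on build GRCm38.p6. The first belongs to the most downstream of 4 listed Csrnp1 starts (chr9:119982974-119983273, minus strand), which was under a peak in all 3 kainic acid lists. The second belongs to Ier5 (chr1:155099587-155099886, minus strand), which was under a peak in kainic acid replicate 2 alone. The promoter not printed belongs to another Csrnp1 start (chr9:119983730-119984029), was under a peak in replicate 2 alone and held no TGANTCA. Capitals mark matches to TGANTCA on either strand.
Csrnp1: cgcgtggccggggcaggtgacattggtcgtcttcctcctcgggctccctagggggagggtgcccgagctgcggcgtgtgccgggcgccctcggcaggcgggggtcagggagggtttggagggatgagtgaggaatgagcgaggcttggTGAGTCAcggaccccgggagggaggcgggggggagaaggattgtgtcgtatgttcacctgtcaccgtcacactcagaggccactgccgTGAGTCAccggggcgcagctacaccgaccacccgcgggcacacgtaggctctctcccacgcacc
Ier5: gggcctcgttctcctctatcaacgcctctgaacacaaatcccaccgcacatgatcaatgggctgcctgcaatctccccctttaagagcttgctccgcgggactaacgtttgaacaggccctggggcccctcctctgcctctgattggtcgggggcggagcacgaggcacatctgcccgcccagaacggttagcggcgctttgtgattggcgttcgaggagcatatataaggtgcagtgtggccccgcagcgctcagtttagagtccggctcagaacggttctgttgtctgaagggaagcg

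The Csrnp1 promoter held 2 matches, both reading TGAGTCA, which began 102 and 14 bases before the start. The kainic acid summits, the positions of highest read coverage, lay 81, 59 and 14 bases before the start in replicates 1, 2 and 3. Measured from the centre of the nearer-to-start match, they lay 70, 48 and 3 bp towards higher coordinates, so all 3 summits fell on or between the 2 matches. The summit on the Ier5 promoter lay 45 bases after the start, and its window held no TGANTCA. The search covered 8 start sites of 5 of the genes (Ier3, Ier5, Ccn1, Tiparp and Csrnp1), and 1 window held the heptamer. Of 32851 RefSeq windows of this length, 7.81% held it. No window of these genes held the cyclic AMP response element TGACGTCA (1.79% of all windows) or the CArG box of serum response factor (1.63%). A match describes letters in a window and not a bound site.

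The 6 lists differed greatly in length, and this bears on every count. The kainic acid lists held 15009, 63197 and 29650 peaks in replicates 1, 2 and 3, against 7, 3277 and 2 in the saline replicates. Saline replicates 1 and 3 could thus have shown almost no peak anywhere, and saline replicate 2 supplied every saline peak near the 8 genes. A site without a peak in a list was left uncalled and may still be bound. In whole tissue, binding in fewer cells and weaker binding per cell cannot be told apart.

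Peaks within 50 kb of any of the 8 genes numbered 18, 54 and 36 in kainic acid replicates 1, 2 and 3. In the saline lists they numbered 0, 7 and 0. Every kainic acid list therefore held more such peaks than any saline list. On the scale log10(number + 1), kainic acid libraries averaged 1.53 ± 0.233 (SD, n = 3). Saline libraries averaged 0.301 ± 0.521 (SD, n = 3), lower by 1.23, which is more than the SD within each group. An exact two-sided permutation test over the 6 libraries returned p = 0.1, and no grouping of this size can return less. Taken as a share of each list, the order was not the same. The genes' windows took 0.1199% of the peaks of kainic acid replicate 1 (95% Clopper-Pearson interval 0.0711 to 0.190), 0.0854% in replicate 2 (0.0642 to 0.112) and 0.121% in replicate 3 (0.0851 to 0.168). They took 0.214% of the peaks of saline replicate 2 (0.0859 to 0.440), an interval that overlaps all 3 others. The higher number of peaks with kainic acid thus went with longer lists, and the part of list length in it was not tested.

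Peaks that overlapped between lists were merged into regions, and a region found with kainic acid in 2 or 3 replicates is termed a supported region. The 8 genes had 64 regions, 59 with a kainic acid peak. Of these, 14 had a peak in every kainic acid replicate, 17 had one in 2 replicates and 28 in 1, which was replicate 2 for 21 of them. Among the 17, 16 rested on replicates 2 and 3. Regions in 3, 2 and 1 kainic acid lists made up 23.7%, 28.8% and 47.5% of those 59. For all regions with a kainic acid peak the shares were 17.9%, 22.4% and 59.7%. Genome-wide shares by single replicate were not computed. All 3 lists held 45.2% of the 31 supported regions, against 44.4% of the 26862 in the genome. All 8 genes had a supported region within 50 kb, where 62.7% of all protein-coding genes had one. A region in all 3 lists lay near 5 of the 8 (Ier3, Ier5, Ccn1, Tiparp and Csrnp1), against 42.5% of all genes. The median was 3.5 supported regions per gene, against 1 for all genes, although these genes are short (median span 3.26 kb, against 17.2 kb). Leaving out kainic acid replicate 2 reduced the supported regions to 14, at 5 of the 8 genes, and leaving out replicate 3 reduced them to 15. The share of all genes with a supported region was not computed for these omissions. Tiparp and Csrnp1 had 8 supported regions each, a number reached or passed by 4.4% of all genes.

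**Figure D1:**
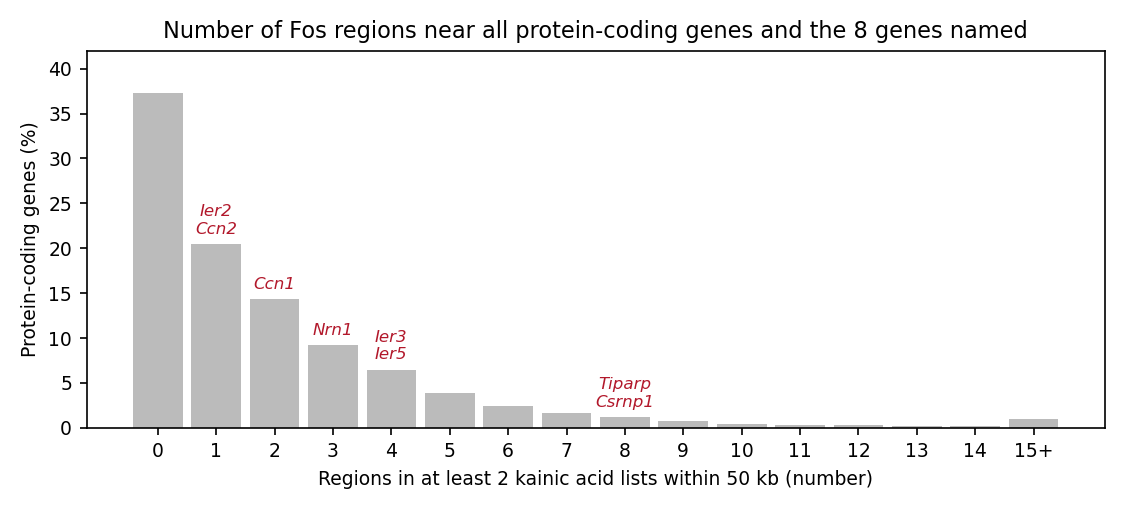
Share of protein-coding genes (vertical axis, percent) by the number of supported regions within 50 kb (horizontal axis, with 15 and more in the last bar). Gene names stand over the bar of their own count, from 1 region for Ier2 and Ccn2 to 8 for Tiparp and Csrnp1.

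Peak numbers separated the groups gene by gene in 3 cases. Tiparp, Csrnp1 and Ccn1 had more peaks in every kainic acid list than in any saline list, 3 of 8 genes, against 33.5% of all protein-coding genes. This share is near the background. The other 5 overlapped saline replicate 2 or had a kainic acid list without a peak. Without saline replicate 2 the number of separated genes was 6, and without kainic acid replicate 1 it was also 6, so either library set it. The share of all genes without these libraries was not computed, so the 33.5% does not apply to these counts.

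**Figure D2:**
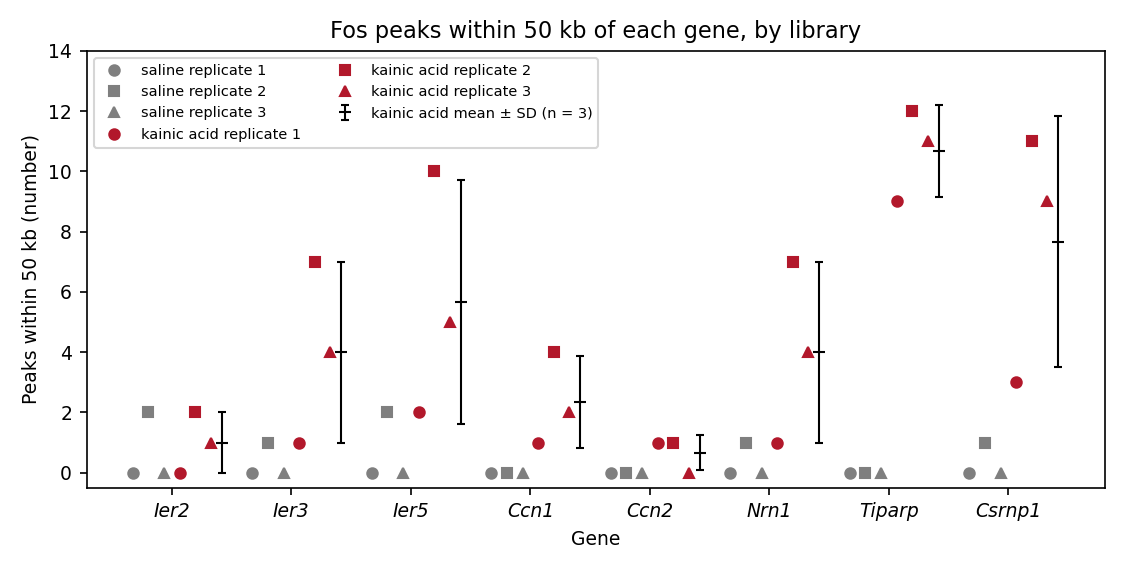
Number of peaks within 50 kb of each gene (vertical axis) in every library, saline in grey and kainic acid in red, with the kainic acid mean and SD (n = 3) in black. Tiparp has 9 to 12 peaks in the kainic acid lists and none in the saline lists, while Ier2 has 2 peaks in both saline replicate 2 and kainic acid replicate 2.

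Among the nuclear regulators, Csrnp1 had the most regions. Its product is a cysteine- and serine-rich nuclear protein that activates transcription. The gene (ID 215418) spans chr9:119971163-119984742 on the minus strand. It had 3, 11 and 9 peaks in kainic acid replicates 1, 2 and 3 and 0, 1 and 0 in the saline replicates. The kainic acid mean was 7.67 ± 4.16 (SD, n = 3), and the groups did not overlap. Its strongest region, chr9:119982385-119984098, covered the printed promoter. The authors' fold over local background there was 6.74, 16.7 and 11.1 in replicates 1, 2 and 3. Because this fold is not scaled between libraries, it was ranked within each list, as a percentile on which 0 is the highest fold. The region stood at percentiles 9.94, 0.816 and 1.11, a mean of 3.95 ± 5.19 (SD, n = 3). The reads over each summit, solved from the deposited fold and −log10 p, were 41, 99 and 94 over backgrounds of 5.23, 4.98 and 7.59. All 3 libraries placed this region in the top 10% of their peaks. It was picked for its mean percentile in these same lists, so high ranks were partly set by the choice.

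Inside the Csrnp1 span lay 2 further supported regions. The region at chr9:119977231-119979160 was in all 3 lists, with percentiles of 33.9, 6.58 and 4.75. The other, chr9:119981048-119981825, was in replicates 2 and 3, at 10.8 and 27.7. The remaining 5 lay 16.9 to 39.0 kb upstream, and for each of them Xirp1, a gene of striated muscle, was the nearer gene. A distal region among them, chr9:120008928-120009941, was in all 3 lists with folds of 5.96, 13.7 and 7.84, and its mean percentile was 7.91 ± 7.94 (SD, n = 3). Csrnp1 had 3 supported regions rather than 8 when kainic acid replicate 2 or replicate 3 was left out. The saline replicate 2 peak (fold 3.66) lay inside the gene at chr9:119976729-119976985 and touched no kainic acid peak.

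Ier5 encodes a nuclear protein that takes part in the control of heat shock factor and growth. The gene (ID 15939) spans chr1:155096367-155099636 on the minus strand. Its windows held 2, 10 and 5 peaks in kainic acid replicates 1, 2 and 3, and 0, 2 and 0 in saline. Saline replicate 2 equalled kainic acid replicate 1, so the groups overlapped (exact permutation p = 0.2). The strongest of its 4 supported regions lay 8.10 kb upstream at chr1:155107736-155109211. Its folds were 5.52, 14.6 and 6.95, at percentiles 22.3, 1.41 and 8.21. When kainic acid replicate 2 or replicate 3 was left out, 2 of the 4 stayed supported. A second region of all 3 lists lay 44.5 kb downstream at chr1:155050742-155051854, with percentiles of 12.9, 7.93 and 78.0. Replicates therefore disagreed widely on the rank of that distal region. Over the gene itself, kainic acid replicate 2 had 3 separate peaks, the other kainic acid lists had none, and saline replicate 2 had 1. The saline peak (fold 3.24, 16 reads over a background of 4.24) and the kainic acid peak that overlapped it (fold 3.08, 19 reads over 5.50) were at percentiles 90.2 and 92.5 of their lists. Both stood near the bottom of their lists. The replicate 2 peak on the printed promoter had a fold of 5.69 at percentile 26.0, with 34 reads over 5.16. The remaining replicate 2 peak over the gene had a fold of 3.12 at percentile 91.3.

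Ier2, which encodes a small nuclear regulator of transcription, had the fewest peaks of this group. The gene (ID 15936) spans chr8:84661331-84662852. It had 0, 2 and 1 peaks in kainic acid replicates 1, 2 and 3 and 0, 2 and 0 in the saline replicates, so the groups overlapped (exact permutation p = 1). Its single supported region, chr8:84661289-84661991, overlapped the low-coordinate end of the span. Folds there were 6.19 in kainic acid replicate 2 and 6.01 in replicate 3, at percentiles 21.8 and 13.8. The same region had a peak in saline replicate 2, with a fold of 4.23 at percentile 46.0. Reads over the summit were 36 and 40 in the kainic acid libraries and 17 in the saline library, over backgrounds of 4.98, 5.82 and 3.26. This was the only supported region of the 8 genes with a saline peak. It was not counted when kainic acid replicate 2 or replicate 3 was left out.

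Ier3, also known as IEX-1, encodes a stress-induced protein that affects cell survival. The gene (ID 15937) spans chr17:35821713-35822911 on the plus strand. It had 1, 7 and 4 peaks in the kainic acid lists and 0, 1 and 0 in the saline lists, with an overlap between kainic acid replicate 1 and saline replicate 2. The strongest region lay 44.2 kb upstream at chr17:35776338-35777518 and was in all 3 kainic acid lists. Its folds were 5.62, 11.5 and 6.75, at percentiles 20.5, 3.38 and 9.30. A region at the gene's downstream end, chr17:35822592-35823176, was in replicates 2 and 3 at percentiles 6.22 and 31.8. Its summits lay 1303 and 1128 bp after the start. The other 2 supported regions were nearer to Mdc1 and inside Ppp1r18, so 2 of the 4 had Ier3 as the nearest gene. When kainic acid replicate 2 or replicate 3 was left out, 1 of the 4 regions remained supported. With a reach of 10 kb the downstream-end region was the strongest and its mean percentile was 19.02, against 11.1 for the distal region.

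Tiparp encodes PARP7, an enzyme that adds mono-ADP-ribose to proteins and is a target of the aryl hydrocarbon receptor. The gene (ID 99929) spans chr3:65528447-65555518 on the plus strand. It had 9, 12 and 11 peaks in kainic acid replicates 1, 2 and 3 and 0 in each saline list. The kainic acid mean was 10.7 ± 1.53 (SD, n = 3), and no group overlap was seen. Of its 8 supported regions 7 were in all 3 lists, and Tiparp was the nearest protein-coding gene of all 8. The count was 7 when kainic acid replicate 2 or 3 was left out and 8 without replicate 1, so it moved little with any library.

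The strongest Tiparp region lay 1.37 kb beyond the gene's downstream end, at chr3:65556888-65558323. Its folds were 7.43, 15.2 and 9.66, at percentiles 6.92, 1.19 and 2.12, and the reads over its summits were 32, 64 and 51. Next to it, 2.85 kb beyond the end, chr3:65558368-65559586 had percentiles of 14.2, 12.3 and 21.4. A distal region 30.8 kb downstream, chr3:65586286-65586997, stood at 9.67, 3.90 and 0.506. There replicate 3 had its highest rank for any of the 8 genes, 151 of 29650 peaks, with a fold of 12.7. At the other end of the gene, chr3:65527046-65528175 lay 272 bp upstream of the span, with summits at -827, -773 and -777 bp from the start in replicates 1, 2 and 3. Percentiles there were 66.8, 24.3 and 60.3, weaker in each list than at the 3 downstream regions just described. Inside the span were regions at chr3:65529578-65530465 and chr3:65545372-65546520, both in all 3 lists, with mean percentiles of 44.02 ± 23.02 and 25.68 ± 16.02 (SD, n = 3).

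Ccn1 (Cyr61) and Ccn2 (Ctgf) encode matricellular proteins that bind integrins and are familiar targets of the YAP coactivator. Ccn1 (ID 16007) spans chr3:145646971-145649985 on the minus strand, and Ccn2 (ID 14219) spans chr10:24595442-24598683. Ccn1 had 1, 4 and 2 peaks in the kainic acid lists and 0 in each saline list. Both of its supported regions lay upstream, at 3.06 and 6.77 kb. The more distant region, chr3:145656754-145657382, was in all 3 lists, with folds of 3.35, 9.12 and 4.35. Its percentiles of 88.7, 7.24 and 39.5 (mean 45.2 ± 41.0, SD, n = 3) spanned most of the scale, so its rank is poorly fixed. Ccn1 kept 1 supported region without kainic acid replicate 2 or 3. Ccn2 had 1, 1 and 0 peaks in the kainic acid lists and 0 in each saline list. These formed 1 supported region, chr10:24642887-24643388, which lay 44.2 kb away inside Enpp1, at percentiles 61.6 and 19.2 in replicates 1 and 2. No peak of any list lay within 10 kb of Ccn2, and its region was not counted when either replicate was left out.

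Nrn1 encodes neuritin, a protein anchored to the neuronal surface that promotes the growth of neurites. The gene (ID 68404) spans chr13:36725622-36734477. It had 1, 7 and 4 peaks in kainic acid replicates 1, 2 and 3 and 0, 1 and 0 in saline, again with overlap between kainic acid replicate 1 and saline replicate 2. All 3 supported regions rested on replicates 2 and 3, and none was counted when either was left out. The strongest, chr13:36736460-36737148, lay 1.98 kb beyond the high-coordinate end, with folds of 5.145 and 4.399 at percentiles 33.4 and 37.3. The other 2, at 8.38 and 32.4 kb, had mean percentiles of 71.3 and 92.6 and so belonged to the lower part of both lists. Over the span, kainic acid replicates 1 and 3 and saline replicate 2 each had 1 peak, at 3 different positions. Nrn1 thus had as many peaks as Ier3 in every library and fewer supported regions.

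**Figure D3:**
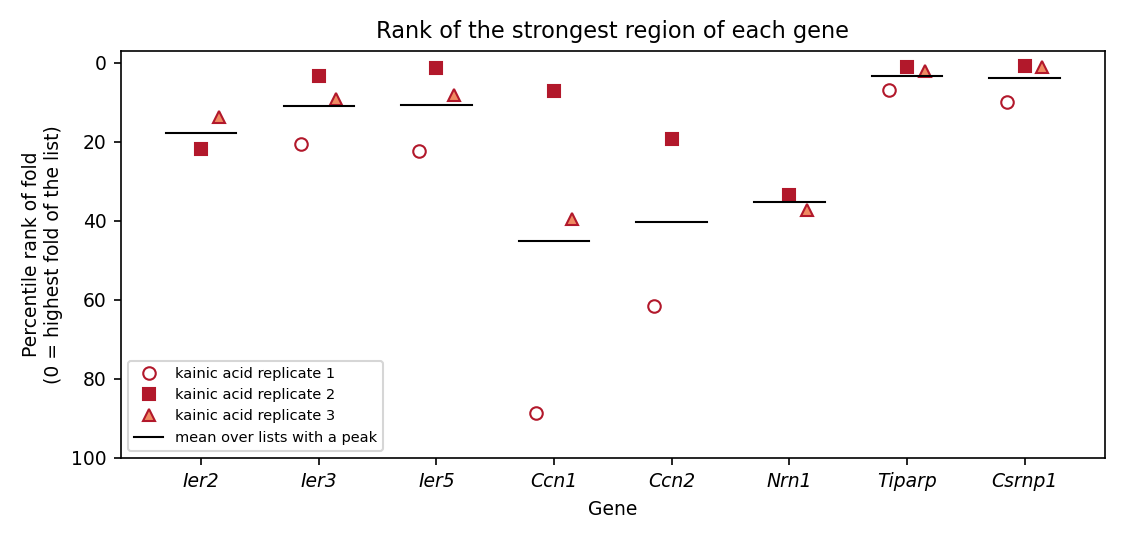
Percentile rank of the fold (vertical axis, 0 is the highest fold of a list) for the strongest supported region of each gene, with 1 point per kainic acid list that holds the region and a line at their mean. Tiparp and Csrnp1 lie between 0.816 and 9.94 in all 3 lists, while the Ccn1 points run from 7.24 to 88.7.

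The order of the strongest regions by mean percentile was Tiparp (3.41 ± 3.07), Csrnp1 (3.95 ± 5.19), Ier5 (10.7 ± 10.7), Ier3 (11.1 ± 8.68), Ier2 (17.8 ± 5.69), Nrn1 (35.3 ± 2.77), Ccn2 (40.4 ± 30.0) and Ccn1 (45.2 ± 41.0). These are SDs over 3 lists, or over 2 for Ier2, Nrn1 and Ccn2. Each region was picked for its percentile, so the order is a description. Neighbours differed by less than the larger of their SDs, except for the step from Ier2 to Nrn1. The order changed with the setting. Without kainic acid replicate 1 the values were 0.961 for Csrnp1, 1.66 for Tiparp, 4.81 for Ier5, 6.34 for Ier3 and 23.4 for Ccn1, so Csrnp1 came before Tiparp and Ccn1 before Nrn1 (35.3). Without replicate 2 Ier3 (14.9) came before Ier5 (15.3), and Ccn1 stood at 64.1. Ranked by −log10 q in place of the fold, Csrnp1 (2.44) came before Tiparp (4.43), Ier3 (7.77) before Ier5 (14.1), and Ccn1 (45.8) before Ccn2 (49.9). Kainic acid replicate 2 gave the best percentile in 24 of the 31 supported regions. The same count over the genome was not computed. Replicate 2 had the longest list, and any part of list length in these percentiles was not tested. Across the 31 regions the median percentile was 22.3, 19.2 and 38.4 in replicates 1, 2 and 3, beside 47.2, 24.3 and 44.8 for all supported regions of the genome. The top 10% of a list held 3 of 15 regions in replicate 1, 11 of 31 in replicate 2 and 7 of 30 in replicate 3. Genome-wide the corresponding shares were 10.9%, 23.1% and 11.7%.

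By position, 7 of the 31 supported regions overlapped a span, 8 lay within 10 kb outside it and 16 lay 10 to 50 kb away. Scaled to length, this was 11.3 regions per 100 kb inside the spans, 5.00 within 10 kb and 2.50 beyond. Around all protein-coding genes the corresponding densities were 1.66, 1.33 and 1.19. The 8 genes thus had a higher density in each band, and a steeper fall with distance, than the average over all genes. Their median span is 3.26 kb, against 17.2 kb for all genes, so the band inside the spans compares unlike lengths. The 8 spans sum to only 61.8 kb, and 5 of the 7 regions inside them belonged to Tiparp and Csrnp1. For 22 of the 31 supported regions the named gene was the nearest protein-coding gene, and the other 9 were at Csrnp1, Ier3, Ier5 and Ccn2. The matching share around all protein-coding genes was not computed, so this count cannot be called high or low. Regions in all 3 lists were wider than those in 2 or 1, with medians of 1140, 585 and 381 bp, beside 844, 579 and 301 bp genome-wide. A region spans all the peaks merged into it, so its width is tied to the number of lists by construction.

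**Figure D4:**
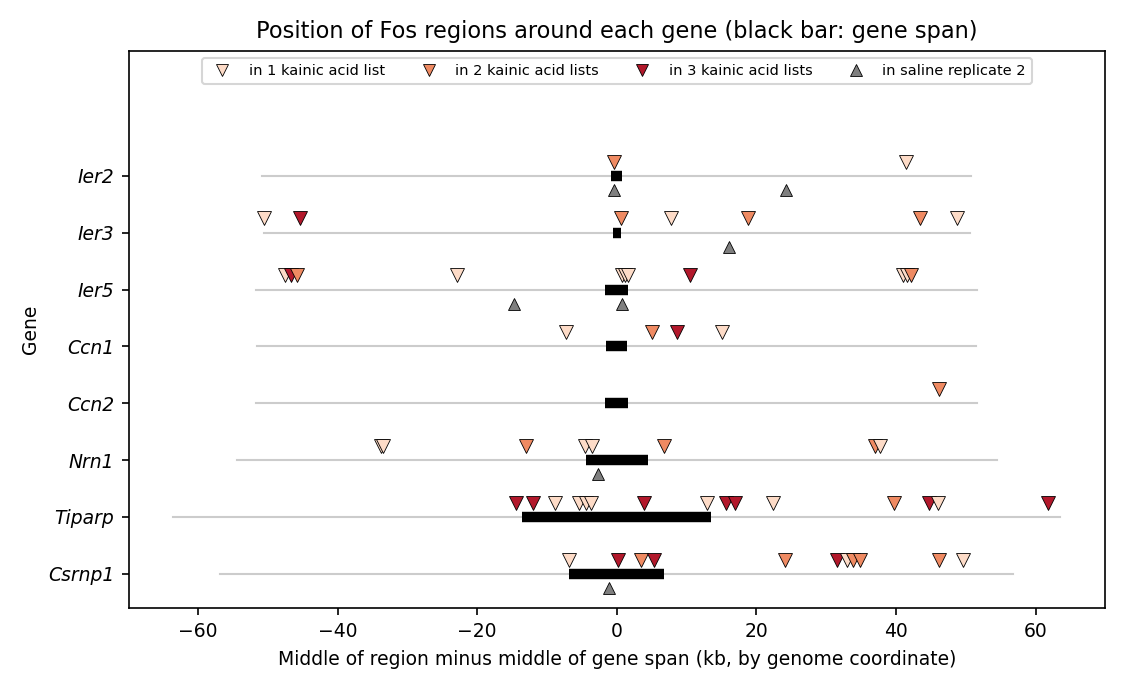
Position of every region around the 8 genes, as the distance in kb between the middle of the region and the middle of the gene span (horizontal axis), with spans as black bars and the 50 kb reach as grey lines. Downward triangles are coloured by the number of kainic acid lists (1 to 3) and upward grey triangles mark the 7 peaks of saline replicate 2, of which 2 (at Ier2 and Ier5) coincide with a kainic acid region.

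Few regions at these genes held peaks of both groups. Of the 31 supported regions 30 had no saline peak, 96.8% (Clopper-Pearson interval 83.3 to 99.9), beside 98.0% for all supported regions of the genome. With saline lists of 7, 3277 and 2 peaks, this share had to be high. The 7 peaks of saline replicate 2 lay near Ier2 (2), Ier5 (2), Ier3, Nrn1 and Csrnp1 (1 each). Their folds ran from 3.04 to 4.70, and 2 of the 7 overlapped a kainic acid peak. The same share over all saline peaks was not computed, so this count cannot be called low or high. The saline peaks 23.4 kb from Ier2 and 15.3 kb from Ier3 lay inside other genes, Nacc1 or Trmt1 and Tubb5, so 5 of the 7 had the named gene as the nearest.

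Other gene lists give context. Of 11 family relatives of these genes 9 had a supported region within 50 kb, beside 62.7% of all protein-coding genes, with a median of 1. Counts ran from 0 (Ccn5 and Parp11) to 10 (Csrnp3, whose span of 191 kb makes its window the longer). Of 11 other immediate early genes of neurons, all had a supported region, with a median of 6 and counts from 3 (Egr2) to 12 (Fosb). All 11 also had a region in all 3 lists, beside 42.5% of all protein-coding genes. Of these 11, 8 were separated between the groups, beside 33.5% of all protein-coding genes. For the 8 genes described here it was 3, near that share. In mean peaks per gene, the 8 genes had 2.25, 6.75 and 4.50 in kainic acid replicates 1, 2 and 3, against 1.05, 5.11 and 2.22 for all protein-coding genes and 3.36, 15.6 and 7.82 for the other immediate early genes. In saline replicate 2 the means were 0.875, 0.478 and 1.82 in the same order. Family relatives had means of 0.727, 5.64 and 2.545 in kainic acid replicates 1, 2 and 3, and 0.5455 in saline replicate 2. The 8 genes thus stood between the average gene and the other immediate early genes in each of these 4 libraries, a difference that was not tested.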

How the data were processed

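Fos ChIP-seq of hippocampus gave 6 deposited peak lists, 1 per library. Per the submitters' processing notes, reads were trimmed with Trim Galore 0.6.4, aligned with Bowtie2 2.3.4.3 to mm10, and peaks came from MACS2. The peak names add a mapping quality filter of 30. The peak cutoff and the control library are not given in the sources used here. The deposited columns hold the authors' fold (a ratio to background), −log10 p, −log10 q and a score equal to 10 times −log10 q, rounded down. The lowest deposited −log10 q was 1.35 to 1.38 in the 4 long lists. No read totals come with the lists, so depth is unknown. Intervals cover counting error only.

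Peaks were merged where they shared at least 1 bp. Gene spans came from a RefSeq table of GRCm38.p6, the assembly called mm10 in genome browsers. Strand was taken from the promoter table, which held 5 of the 8 genes. For Ier2, Ccn2 and Nrn1 positions are given by coordinate only. A region belongs to a gene when it lies within 50 kb of the span. The authors' fold was ranked within each list, and a region takes the highest fold of its peaks in that list. Summit reads k and background b were solved from fold = (k + 1)/(b + 1) and the Poisson tail above k, with an error under 0.001 in −log10 p for 115 of 115 peaks. Several peaks near the genes shared the lowest solved background, 2.705 reads in kainic acid replicate 2 and 4.034 in replicate 3. Among them was the Tiparp peak of rank 151 in replicate 3. At such peaks the fold may not be a ratio to local background. Merging, distances and the solver were tested on simulated data. Python 3.11.15, pandas 2.3.3, numpy 2.4.6 and scipy 1.17.1 were used. The text names all 8 genes, the strongest region of each by mean percentile, and from the context lists the genes with the most and fewest regions. The 8 genes and the lists were chosen with earlier results of these data known.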

Additional observations from a re-analysis of the deposited data

How the results depend on the processing

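The log10 number of peaks near the 8 genes was higher with kainic acid in all alternatives tried for it, by 1.08 to 1.53 with 1 library left out. The same replicate numbers occur in both groups. With the replicate block the difference was 1.23 (exact sign-flip permutation p = 0.25, the smallest that 3 pairs allow). Deviations of same-numbered libraries across genes correlated at 0.354, 0.347 and 0.0137. Different numbers gave values of the same size. Kainic acid replicate 1 correlated at 0.354 with saline replicate 3 and at -0.354 with saline replicate 2. Kainic acid replicate 2 correlated at -0.347 with saline replicates 1 and 3. With only 7 and 2 peaks in saline replicates 1 and 3, these correlations cannot show whether equal numbers mark pairs. The main comparison left the numbers out.

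Supported regions fell from 31 to 15 with a reach of 10 kb, 16 with −log10 q of at least 10, 19 with kainic acid lists cut to equal length and 14 when all 3 lists were required. Leaving out 1 library gave 14 to 31. Genes with a supported region were 5 with −log10 q of at least 10 or with all 3 lists, and 5 to 8 with 1 library left out. With all 3 lists required, 42.5% of all genes had such a region. Separated genes ranged from 3 to 6. For the other alternative settings the share of all genes was not computed for either count. The share without a saline peak was 93.3% at 10 kb, 94.7% with equal list lengths, 100% with −log10 q of at least 5 or 10 and with all 3 lists, and 96.7% to 100% with 1 library left out. Only the supported region at Ier2 had a saline peak (−log10 q 3.76 in saline replicate 2). Settings that removed this region or this peak gave 100% by construction. The share of a list near the genes was 0.0396% and 0.0675% in kainic acid replicates 2 and 3 at 10 kb, and 0.136% in replicate 2 at 100 kb. For peaks with −log10 q from 10 upwards it was 0.225%, 0.135% and 0.189%, and with equal lengths 0.140% in replicate 2. Fewer peaks, lists or bases enter under most of these settings. Of 120 alternative region counts of single genes, 55 were lower than the reported count, of which 17 were 0, 6 were higher and 59 were equal. The equal counts include all those without a saline library, because support rests on kainic acid lists alone. Of 33 alternative percentiles of strongest regions, 7 differed from the reported value by over 1.5 times, 6 of them lower. Counting only regions with the named gene as nearest was added after seeing the data and gave 22 regions at 7 genes.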
